A study of Mus musculus with 10 samples.

Results

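The genes described here are 9 genes of the receptor system by which natural killer (NK) cells and killer T cells decide whether to attack a neighbouring cell: the receptor genes Klrk1, Klrd1, Klrc1, Klrc2, Klrb1c, Klrg1 and Ncr1, the cytokine receptor chain Il2rb and the transcription factor Eomes. They were chosen by gene symbol, as 9 of the 56691 genes of a table of colon RNA sequencing counts. All 9 symbols were found in it, each on 1 line. The mice were male C57BL/6 aged 8 weeks, given colitis with dextran sulfate sodium (DSS), a sulfated sugar polymer that injures the colon lining. The question was what chick early amniotic fluid (ceAF), taken from fertilised hen eggs, does in the injured colon. The DSS group had 3% DSS in the drinking water for 7 days. The DSS + ceAF group, called ceAF below, had the same DSS and then 15 mL/kg ceAF by gavage for 10 days. A gavage of the DSS group and the day on which its colons were taken are not given in the sources used here. Each group had 5 libraries, 1 per numbered sample, made from whole colon tissue. No untreated mouse was analysed here, so levels are those of mice given DSS, with or without ceAF afterwards. Library totals ran from 16275884 to 19901549 counts in the DSS group and from 14676471 to 18811795 in the ceAF group.

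Killer lymphocytes carry activating and inhibitory receptors side by side, and the balance of their signals sets the response. Many of the inhibitory receptors read class I molecules, which healthy cells display, and many of the activating receptors read ligands that stressed or transformed cells put on their surface. In the gut these receptors are found on NK cells, on other innate lymphocytes and on T cells, above all the CD8 and gamma delta T cells that sit within the epithelium.

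The members were weakly expressed in this tissue, which is mostly epithelium, muscle and stroma. CPM here are counts scaled to the size of the library, corrected with the TMM method, and FPKM are the deposited values scaled to exon length and library size, on which genes can be compared with one another. In the DSS group the mean FPKM was 7.14 ± 2.83 (SD, n = 5) for Klrd1 and 3.54 ± 1.08 for Il2rb. The SDs overlapped, but Klrd1 was above Il2rb in every mouse of both groups. Klrc1 followed at 1.38 ± 0.339 and Klrk1 at 0.526 ± 0.174, each apart from its neighbour above by more than the SDs. Klrg1 (0.326), Klrb1c (0.29), Klrc2 (0.222), Eomes (0.178) and Ncr1 (0.106) came last, with spreads that ran into those of their neighbours. The spreads of Klrg1 and Klrb1c also ran into that of Klrk1, but within each DSS mouse Klrk1 was above both. In the ceAF group Klrd1 again came first at 4.79 ± 0.986, before Il2rb at 1.87 ± 0.838, Klrc1 at 0.604 ± 0.338 and Klrk1 at 0.42 ± 0.213, and Klrc1 and Klrk1 were then within each other's spread. The exonic length used for the FPKM was 7183 bases for Klrk1 and 5812 for Klrc2. Their longest annotated transcripts in GENCODE M21 had 3259 and 3179 bases, so the FPKM of this pair would be higher per transcript length. For Klrc1 both lengths were 1984 bases. The gap between Klrc1 and Klrk1, and the places of Klrk1 and Klrc2 among the members, are therefore given for the deposited lengths only.

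Checked against the genes that define NK cells, the name of the set holds for the receptors and not for a cell type. Ncr1, which encodes NKp46, a receptor that marks NK cells and some innate lymphoid cells, had 0, 4, 8, 1 and 1 raw counts in the DSS mice and 2, 10, 8, 3 and 6 in the ceAF mice. Klrb1c, which encodes NK1.1, the classical NK cell antigen of this strain, had 4 to 27 counts in a library. The T cell receptor chain gene Cd3e had 65 to 366 counts in a library, and its mean FPKM over the 10 mice was 2.44, against 0.167 for Ncr1 and 0.269 for Klrb1c. The members are therefore described as receptor genes, without a claim about which lymphocytes carried them.

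Some libraries stood apart before any member was compared. DSS-1 had a summed level of 1750 CPM over 6 neutrophil genes, against 549 CPM in the next highest library, DSS-5, and it also led the 6 B cell genes with 220 CPM. In ceAF-1 the 6 neutrophil genes summed to 21.1 CPM and the 5 fibroblast genes to 126 CPM, the lowest of the 10 libraries on both. DSS-5 had the lowest summed level of the 8 T cell genes within the DSS group, 49.2 CPM. The epithelial gene Car1 was lowest of the 10 libraries in DSS-5, at 115 CPM, and highest in ceAF-1, at 11900.

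Of the 9 members, 7 had enough counts to be tested, and Klrg1 and Ncr1 did not pass the filter on low counts. The comparison used edgeR's quasi-likelihood test over all 16545 genes kept, with p-values adjusted by the Benjamini-Hochberg method, and a log2 fold change is ceAF against DSS with its standard error (SE). At an adjusted p under 0.05, 0 of the 7 tested members and 0 of all genes (0%) passed, and the smallest adjusted p of any gene was 0.656. At an unadjusted p under 0.05, 1146 genes passed, 607 lower (3.67% of the genes tested) and 539 higher (3.26%) with ceAF. These shares are the background for every count of lower or higher genes in the lists below. That background depends on single libraries: without DSS-1 712 genes passed, 321 of them lower, and without ceAF-1 1872 passed, 997 of them lower. Klrc1, Klrc2 and Il2rb were the 3 of 7 tested members on the lower side at that limit, and 0 members were on the higher side. DESeq2, run as an alternative, called 26 genes (adjusted p under 0.05 with a log2 fold change of 1 or more either way), and 0 of them were members. All 7 tested members had a negative log2 fold change, with a median of -0.55, beside a median of 0.01 over all genes, of which 8034 of 16545 were negative. In bulk tissue, fewer cells of a type and less RNA per cell cannot be told apart.

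Klrc1 encodes NKG2A, the inhibitory partner of CD94, and the pair reads H2-T23, a nonclassical class I molecule. Klrc1 stood at 1.74, 3.45, 3.23, 2.75 and 2.46 CPM in DSS-1 to DSS-5. In ceAF-1 to ceAF-5 it stood at 1.37, 2.21, 1.48, 0.597 and 0.495 CPM. Each group kept mostly to its own range, with DSS-1 below ceAF-2 as the only crossing, and ceAF-4 and ceAF-5 were lowest, at 10 and 9 raw counts. The log2 fold change was -1.15 ± 0.39 (SE), with an unadjusted p of 0.0137 in the edgeR fit, an adjusted p of 0.656 and an exact two-sided permutation p of 0.0159. Leaving out any 1 library gave -1.46 to -0.95, with unadjusted p-values of 0.00359 to 0.0343, and without DSS-1, DSS-5 or ceAF-1 it was -1.27, -1.18 and -1.20. By limma it was -0.58 on log2(FPKM + 1) and -1.18 on log2(FPKM + 0.1).

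Klrc2 encodes NKG2C, the activating counterpart that also pairs with CD94 and reads the same ligand. Its level was 1.51, 1.25, 1.26, 1.54 and 0.84 CPM in the DSS mice. In the ceAF mice it was 0.839, 0.716, 0.823, 0.776 and 0.88 CPM, a narrow band that only DSS-5 entered. These values rest on 11 to 26 raw counts in a library. The log2 fold change was -0.66 ± 0.23 (SE), with an unadjusted p of 0.0147, an adjusted p of 0.656 by edgeR and an exact permutation p of 0.0159. Without DSS-1, DSS-5 or ceAF-1 it was -0.59, -0.76 and -0.67. The unadjusted p was over 0.05 with replicate number as a block (0.054) and by limma on unfiltered FPKM (0.0684). By limma the difference was -0.43 on log2(FPKM + 0.1) and -0.10 on log2(FPKM + 1), a scale that understates the change of genes at low FPKM.

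Klrc1, Klrc2 and the neighbouring Klrc3 are close copies of one another, which makes their counts uncertain. Of the 2080 different 100-base stretches in the annotated Klrc1 transcripts, 304 (14.6%) also occur in Klrc2, and of the 6179 in Klrc2, 438 (7.09%) occur in another gene. A read from such a stretch cannot be placed by its sequence alone, and how such reads were counted is not given in the sources used here. The same holds for Klrb1c, which shared 10.8% of its stretches with other genes, while Klrk1, Klrd1, Klrg1, Ncr1, Eomes and Il2rb shared 0%. Klrc3 had 0 to 5 counts in a library and was not tested.

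Klrd1 encodes CD94, the chain that NKG2A and NKG2C need to reach the surface. It was measured at 8.46, 11, 13.1, 9.22 and 3.6 CPM in the DSS mice. The ceAF mice had 6.56, 7.35, 6.58, 3.94 and 6.65 CPM. In the DSS group 4 mice lay above every ceAF mouse and DSS-5 lay below them all. Its log2 fold change of -0.55 ± 0.31 (SE) did not pass, with an adjusted p of 0.755 by edgeR and an exact permutation p of 0.246, and without DSS-5 it was -0.73, with an unadjusted p of 0.00581 and an adjusted p of 0.399, the lowest in a range up to 1 over its alternatives.

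Klrk1 encodes NKG2D, the activating receptor for stress ligands of the Raet1, Ulbp1 and H60 families. It had 3.36, 4, 4.97, 4.68 and 1.74 CPM in the DSS mice. The ceAF values were 2.98, 4.75, 4.5, 0.895 and 2.31 CPM. The groups covered much the same range, with ceAF-4 lowest and DSS-5 next. At -0.28 ± 0.42 (SE) its log2 fold change did not pass, with an adjusted p of 0.935 by edgeR and an exact permutation p of 0.476. It was -0.03 without ceAF-4 and -0.47 without ceAF-2.

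Klrb1c, Eomes, Klrg1 and Ncr1 had few counts and overlapping groups. Klrb1c lay between 0.36 and 1.62 CPM in the DSS mice and between 0.305 and 1.11 in the ceAF mice, with a log2 fold change of -0.21 ± 0.43 (SE) and an adjusted p of 0.958 by edgeR. Its sign turned to 0.16 without DSS-3, and it was -0.39 without DSS-5 and -0.03 without ceAF-1. Eomes, the T-box factor needed for NK cell maturation, ran from 0.12 to 1.04 CPM with DSS and from 0.055 to 1.49 with ceAF, where ceAF-4 was the highest of the 10 mice and ceAF-5 the lowest. Its log2 fold change was -0.11 ± 0.65 (SE), with an adjusted p of 0.984, and it took the opposite sign in 5 of the 10 fits that left out 1 library, with 0.05 without DSS-1, -0.37 without DSS-5 and -0.23 without ceAF-1. Klrg1, an inhibitory receptor of mature killer cells that binds E-cadherin, had 2 to 13 counts with DSS and 1 to 14 with ceAF. The difference of mean log2 CPM, which was not tested in the fit, was -0.72 for Klrg1 and 1.17 for Ncr1, with exact permutation p-values of 0.27 and 0.111. Leaving out 1 library gave -1.16 to -0.45 for Klrg1, the ends without ceAF-2 and without ceAF-1, and 0.80 to 1.59 for Ncr1. With no filter on low counts edgeR gave Klrg1 -0.55 with an adjusted p of 0.82 and Ncr1 1.09 with 0.69.

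Il2rb encodes CD122, the chain through which both IL-2 and IL-15 signal and on which NK cells depend for survival. It was at 16, 19.4, 15.6, 17.4 and 7.14 CPM in the DSS mice. The ceAF mice had 8.09, 10.4, 13.3, 3.64 and 5.61 CPM. Again 4 DSS mice lay above every ceAF mouse, while DSS-5 lay among them. The log2 fold change was -0.88 ± 0.35 (SE), with an unadjusted p of 0.0299, an adjusted p of 0.694 by edgeR and an exact permutation p of 0.0635. The unadjusted p was over 0.05 without DSS-2 (0.0713), DSS-3 (0.0516), DSS-4 (0.0595), ceAF-4 (0.0557) or ceAF-5 (0.0697), and it was 0.00813 without DSS-5.

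**Figure D1:**
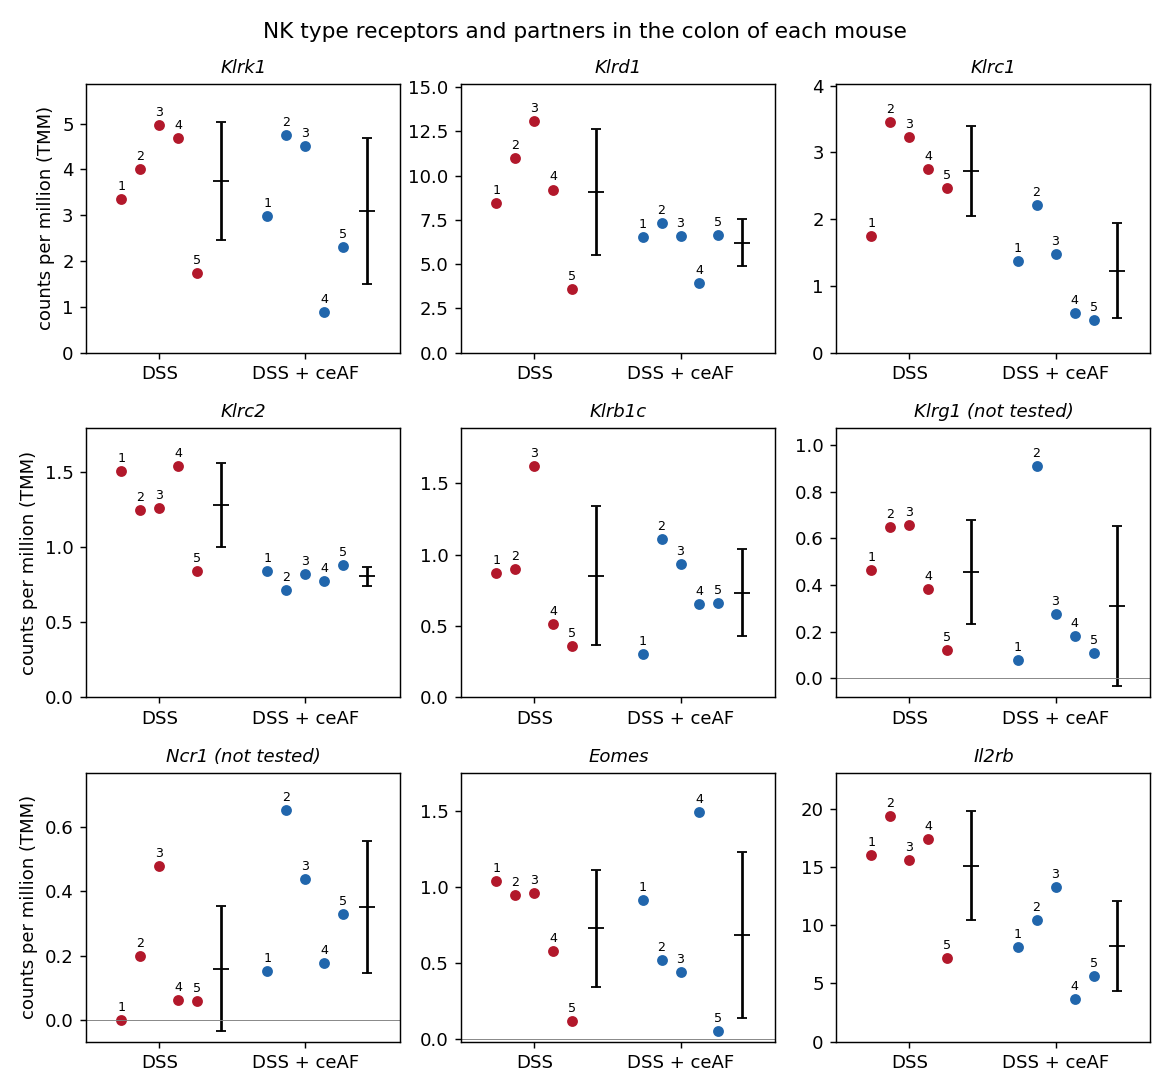
CPM (TMM scaled) of the 9 members in each mouse, DSS in red and DSS + ceAF in blue, with the replicate number above each point and the mean ± SD of 5 mice as black bars. The groups overlap in all 9 panels. DSS-5 is the lowest DSS mouse for Klrk1, Klrd1, Klrc2, Klrb1c, Klrg1, Eomes and Il2rb but not for Klrc1 or Ncr1.

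In none of the 7 tested members did the groups separate fully, while 77 of the 16545 tested genes (0.465%) had every ceAF mouse below every DSS mouse. The 9 members summed to 33.4, 41.8, 41.8, 37.1 and 16.4 CPM in the DSS mice. They summed to 21.3, 28.6, 28.8, 12.3 and 17.1 CPM in the ceAF mice. Il2rb was the largest term except in ceAF-4 and ceAF-5, where Klrd1 was, and DSS-5 was below all ceAF mice but ceAF-4.

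The rest of the receptor cluster was compared next. The NK gene complex is a stretch of mouse chromosome 6 in which lectin-like receptor genes lie side by side. In the deposited table Klrd1 begins, by its lower coordinate, at 129568745, Klrk1 at 129587286, Klrc2 at 129624459 and Klrc1 at 129642978, with Klrb1c at 128755448. Klrg1 is on the same chromosome but lies well away from these genes, at 122247555. The build of these positions is not given in the sources used here. Of 52073 genes matched to GENCODE M21, 1435 (2.76%) had the same start and end. These positions are therefore not to be set beside the GRCm38.p6 promoter positions given below. Of 23 other receptor genes of the complex, 9 were tested, 8 of these had a negative log2 fold change, and 0 passed an unadjusted p under 0.05 in either direction, with a median of -0.57. Without DSS-1 the filter kept 10 of them, with a median of -0.18. Klra2, a Ly49 family gene and the highest of them at a mean of 2.54 FPKM, had a log2 fold change of -0.81 ± 0.52 (SE) and an adjusted p of 0.789 by edgeR, and without DSS-1 it was -0.12. Klrb1 followed at 1.78 FPKM with -0.25 ± 0.54 (SE) and an adjusted p of 0.959, and it was 0.03 without DSS-1 and -0.53 without DSS-5.

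Several ligand genes were expressed well above the receptors per length. H2-T23, read by the CD94 pairs, averaged 142 ± 54.2 FPKM (SD, n = 5) with DSS and 145 ± 80.4 with ceAF. Cdh1, which encodes E-cadherin, averaged 291 and 285 FPKM, and Clec2d, the ligand of the inhibitory receptor encoded by Klrb1b, averaged 119 and 117. None of this trio passed. Of 10 ligand genes 7 were tested, 1 passed an unadjusted p under 0.05 on the higher side and 0 on the lower, and the median log2 fold change was 0.09. Without ceAF-1, 2 passed on the higher side, and without DSS-1, DSS-3, DSS-5 or ceAF-5, 0. The median was -0.02 without DSS-5 and 0.20 without DSS-4 or without ceAF-4.

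Among the ligands of NKG2D, H60c was the one past that limit. It had 13, 23, 4, 18 and 9 raw counts in the DSS mice and 6, 22, 17, 42 and 131 in the ceAF mice. The difference lies mostly in ceAF-5, while ceAF-1 was below 4 of the DSS mice. H60c had a log2 fold change of 1.71 ± 0.69 (SE), with an unadjusted p of 0.0308, an adjusted p of 0.694 by edgeR and an exact permutation p of 0.143. Without ceAF-5 it was 0.80 with an unadjusted p of 0.167, and the unadjusted p was also over 0.05 without DSS-1 (0.0518), DSS-3 (0.0636) or DSS-5 (0.0601), with replicate number as a block (0.0814) and by limma on FPKM (0.104 to 0.117). Raet1e, the NKG2D ligand with the highest mean at 4.4 FPKM, had 0.22 ± 0.23 (SE) and an adjusted p of 0.899. Without ceAF-1 Raet1e was at 0.40 with an unadjusted p of 0.0141. Ulbp1 had 0.02 ± 0.37 (SE) and an adjusted p of 0.996, with -0.07 without DSS-1, 0.26 without DSS-5 and 0.22 without ceAF-1. Raet1d and H60b had 0 to 5 counts in a library and were not tested. IL-15, the cytokine that CD122 receives, had an Il15 log2 fold change of 0.14 ± 0.38 (SE), and Il15ra, which presents it, had 0.17 ± 0.14 (SE), with adjusted p-values of 0.973 and 0.855. Without ceAF-1 the values were -0.33 for Il15, 0.07 for Il15ra and -0.30 for H2-T23.

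The receptors that activate have short tails and signal through adaptor proteins. Of 18 adaptors and signal partners, all tested, 7 were lower at an unadjusted p under 0.05, 0 were higher, and the median was -0.39. Without DSS-1 these were 5, 0 and -0.22. Hcst, which encodes DAP10, the adaptor of NKG2D, was at 3.3, 1.8, 2.75, 2.75 and 2.4 CPM in the DSS mice and at 1.98, 1.95, 1.48, 1.31 and 0.99 in the ceAF mice. Only DSS-2 lay within the ceAF range. Its log2 fold change was -0.76 ± 0.26 (SE), with an adjusted p of 0.656 by edgeR and an exact permutation p of 0.0238. Tyrobp, which encodes DAP12, the adaptor of NKG2C and of activating Ly49 receptors and also a gene of myeloid cells, was at 31.5 CPM in DSS-1 and at 6.18 to 11.2 in the other DSS mice, against 2.98 to 9.31 with ceAF. Its log2 fold change of -1.05 ± 0.45 (SE) had an unadjusted p of 0.04, and without DSS-1 it was -0.45 with an unadjusted p of 0.175. That p was also over 0.05 without ceAF-1 (0.0784), ceAF-4 (0.0771) or ceAF-5 (0.0733), with the block (0.154) and by limma (0.0626 to 0.0646). Cd247, the zeta chain shared by the T cell receptor and NKp46, had -1.28 ± 0.41 (SE), Zap70, the kinase that zeta recruits, -1.27 ± 0.41 and Fcer1g, the gamma chain, -1.37 ± 0.41, each with an adjusted p of 0.656 by edgeR. Fcer1g was at 51.4 CPM in DSS-1 and at 9.42 to 20.4 in the other DSS mice, and without DSS-1 its log2 fold change was -0.83 with an unadjusted p of 0.00934. Il2rg, the chain that pairs with CD122, had -0.74 ± 0.31 (SE) and an adjusted p of 0.694, with an unadjusted p of 0.0338 that stayed under 0.05 in 4 of the 10 fits that left out 1 library, reached 0.102 without DSS-1 and was 0.0776 with the block.

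Of 11 transcription factors of killer lymphocytes 10 were tested, 2 were lower at an unadjusted p under 0.05 and 0 higher, with a median of -0.50, which was -0.17 without DSS-1. The number lower was 1 without DSS-1 or ceAF-4 and 3 without DSS-4, DSS-5 or ceAF-1. Tbx21, which encodes T-bet, the relative of Eomes that drives interferon gamma and killing genes, was at 1.74, 2.75, 2.69, 3.33 and 0.9 CPM in the DSS mice. In the ceAF mice it was at 0.61, 1.11, 1.32, 0.179 and 0.77 CPM. DSS-5 was the only DSS mouse within the ceAF range. For Tbx21 the log2 fold change was -1.50 ± 0.47 (SE), with an adjusted p of 0.656 by edgeR and an exact permutation p of 0.0238. Runx3, a factor of CD8 T cells and NK cells, had -0.81 ± 0.30 (SE), an adjusted p of 0.656 and an exact permutation p of 0.0317, and its unadjusted p of 0.0214 became 0.0586 without DSS-1 and 0.0526 without ceAF-4.

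Of 12 cytotoxic effector genes, all tested, 7 were lower at an unadjusted p under 0.05 and 0 higher, with a median of -1.06. Of all genes tested 3.67% were lower at that limit. Leaving out 1 library gave 6 to 9 lower effector genes, with medians from -1.44 without ceAF-2 to -0.89 without ceAF-5. Gzmk, a granzyme typical of CD8 T cells, was lower in every ceAF mouse than in any DSS mouse, with a log2 fold change of -2.35 ± 0.49 (SE) and an exact permutation p of 0.00794, the smallest that 252 assignments can give. Such separation was seen in 0.465% of all genes tested. Gzmk was named for its small p over these same mice, so the permutation p is no separate test. Ccl5 had -1.70 ± 0.35 (SE), Cst7 -1.81 ± 0.38 and Nkg7, a granule protein of killer cells, -1.68 ± 0.47, each with an adjusted p of 0.656 by edgeR. With DESeq2 the adjusted p was 0.00232 for Gzmk, 0.00293 for Ccl5 and 0.018 for Cst7, each the lowest in a range up to 1 over the alternatives. The most abundant granzymes per length did not pass: Gzma had -0.49 ± 0.39 (SE) and Gzmb -1.01 ± 0.55, with adjusted p-values of 0.842 and 0.745. Leaving out 1 library gave -0.67 to -0.31 for Gzma and -1.47 to -0.78 for Gzmb. The unadjusted p of Gzmb, 0.0925, was under 0.05 without DSS-1 (0.0494) or ceAF-2 (0.0198) and with the block (0.045). Of 15 other surface receptors of NK and killer T cells, 14 were tested and 8 were lower at an unadjusted p under 0.05, 0 higher, with a median of -0.90. The number lower was 6 without ceAF-4 and 11 without DSS-5, and the medians with 1 library left out ran from -1.01 to -0.77. Among these receptors Cd27, a costimulatory receptor, had -1.40 ± 0.35 (SE), Cd96 -1.02 ± 0.28, Crtam -1.52 ± 0.44 and Cd226, the activating counterpart of Cd96, -0.83 ± 0.24.

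**Figure D2:**
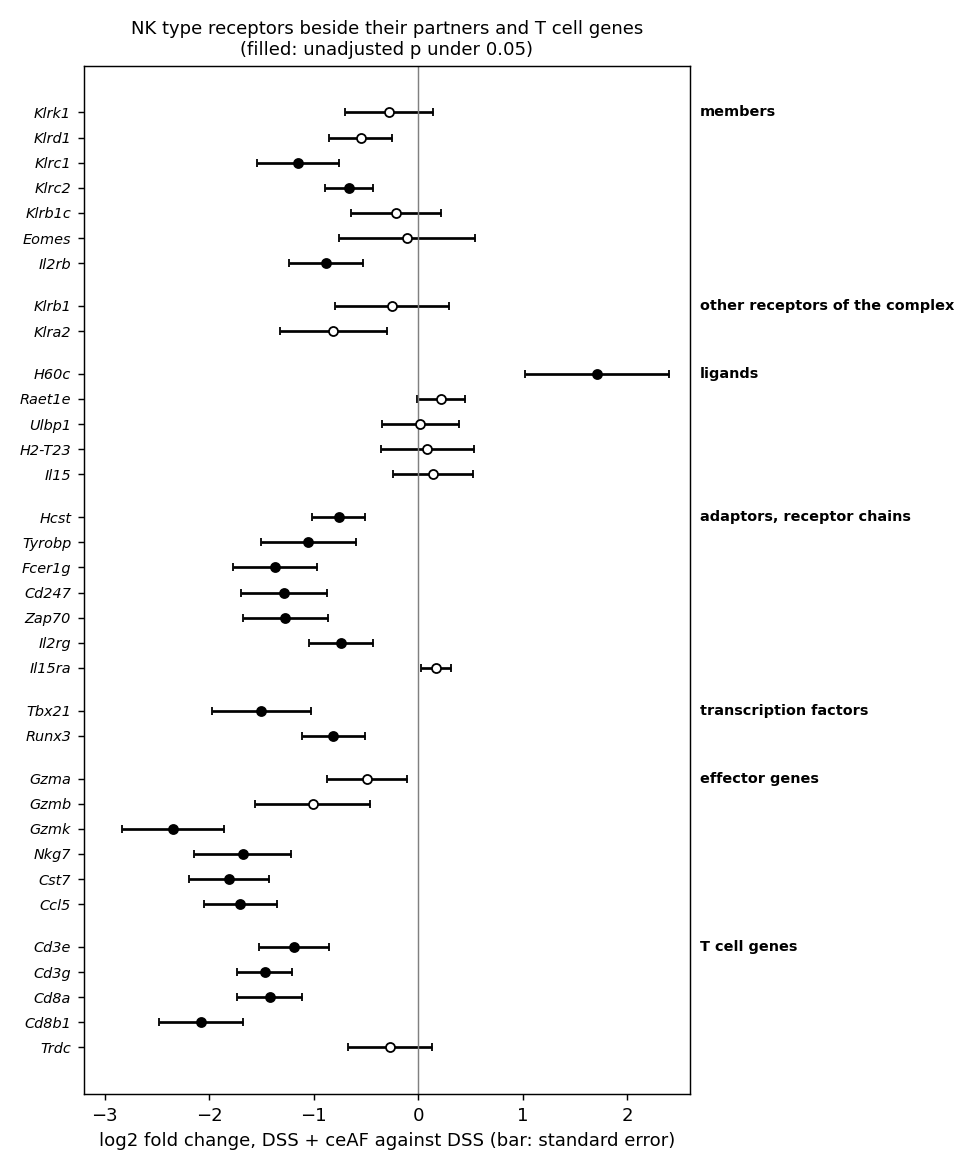
Log2 fold change of ceAF against DSS with its standard error, for the 7 tested members, partner genes grouped by role and T cell genes, filled where the unadjusted p of the edgeR fit was under 0.05. Klrc1, Klrc2 and Il2rb are the filled members, while Klrk1, Klrb1c and Eomes lie within 1 standard error of 0.

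T cell genes were compared next. Of 8 T cell genes in the table, all tested, 7 were lower at an unadjusted p under 0.05 and 0 higher, with a median of -1.32 and Cd8a the most abundant by CPM. Their summed level was 104, 127, 120, 128 and 49.2 CPM in the DSS mice and 46.6, 55.1, 48.7, 27.9 and 32 in the ceAF mice. Only DSS-5 entered the ceAF range, as it did for Klrc2 and Il2rb. Cd8a and Cd8b1, the chains of CD8, were lower in every ceAF mouse than in any DSS mouse, with log2 fold changes of -1.42 ± 0.31 (SE) and -2.08 ± 0.40 and an exact permutation p of 0.00794 each. Of all genes tested 0.465% were separated in this way, and genes of the list were named partly for a small p over these same mice. Cd3e had -1.19 ± 0.34 (SE) and Cd3g -1.47 ± 0.27, and both, like Cd8a and Cd8b1, had an adjusted p of 0.656 by edgeR. With DESeq2 the adjusted p was 0.000767 for Cd3g and for Cd8b1 and 0.0123 for Cd8a, each the lowest in a range up to 1 over the alternatives. DESeq2 gave Cd3e 0.126, and edgeR without DSS-5 gave Cd3g an adjusted p of 0.0366. Trdc, the constant gene of the delta chain of gamma delta T cells, did not pass at -0.27 ± 0.40 (SE), with an adjusted p of 0.935. Its log2 fold change was -0.51 without DSS-5, with an unadjusted p of 0.0747, and -0.13 without DSS-1, -0.11 without DSS-2 and -0.11 without ceAF-4. What part T cells have in the values of the members was not tested.

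Set against Cd3e in the same mouse, the members differed in their ratios. The log2 ratio of Klrd1 to Cd3e CPM was -0.65, -0.72, -0.37, -0.81 and -0.35 in the DSS mice and 0, -0.04, -0.14, 0.02 and 0.38 in the ceAF mice. The groups did not overlap, with ceAF higher, which held for Klrd1 alone of the 7 tested members and for 469 of 16544 genes (2.83%) set against Cd3e in the same way. Klrc1 to Cd3e averaged -2.22 ± 0.77 (SD, n = 5) with DSS and -2.40 ± 0.55 with ceAF, and Il2rb to Cd3e averaged 0.19 ± 0.28 and 0.34 ± 0.36, both within the spread. Ncr1, which was not tested, had ratios of -7.81 to -4.98 with DSS and -4.96 to -3.42 with ceAF, with as few as 0 counts in a library. Its groups barely missed overlapping, with -4.98 in DSS-3 and -4.96 in ceAF-1 on 8 and 2 raw counts. The 2.83% covers only genes that passed the filter on low counts, so it gives no background for Ncr1. Cd3e itself had a log2 fold change of -1.19, beside a median of 0.01 over all genes tested. A gene that does not change therefore has a higher ratio with ceAF. The share of all genes with a higher mean ratio was not counted. By group mean, Klrc1 was the only member with a lower ratio in the ceAF mice. The others had a higher mean, among them Klrk1 (-1.81 ± 0.29 with DSS and -1.13 ± 0.56 with ceAF). For Klrb1c the means were -3.95 ± 0.61 and -3.01 ± 0.67, and for both genes the groups overlapped. These ratios were chosen after the values had been seen and are given without a test.

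Markers of other cells were measured alongside. Of 6 macrophage genes, led by C1qb, 2 were lower at an unadjusted p under 0.05, and 0 in 6 of the 10 fits that left out 1 library, with sums of 160, 111, 118, 121 and 83.1 CPM in the DSS mice and 37.3, 96.2, 116, 76.8 and 92.5 in the ceAF mice. Of 6 neutrophil genes, led by Ly6g, 5 were lower, with sums of 1750, 123, 296, 201 and 549 CPM and then 21.1, 249, 184, 130 and 212, so that the high values were those of DSS-1 and DSS-5. In DSS-5 this was mostly Ly6g (482 CPM), which did not pass. The 5 genes past the limit summed to 1520 CPM in DSS-1, 168 in DSS-3 and 67.3 in DSS-5, and without DSS-1 only 1 of them passed. None of the 6 B cell genes, 4 tested genes of innate lymphoid cells type 3, 7 genes of colon epithelium, 5 of fibroblasts and 5 of smooth muscle passed an unadjusted p under 0.05, and their medians were -0.45, 0, 0.07, -0.37 and -0.12. Without DSS-1 the B cell median was 0.73 and the fibroblast median 0.21. Without ceAF-5 the B cell median was -0.99. The smooth muscle median ran from -0.37 without ceAF-2 to 0.04 without ceAF-1. The fibroblast gene Lum was lower at that limit without DSS-4, DSS-5 or ceAF-4, and the epithelial gene Muc2 without ceAF-4. None of the markers was at 0 in all 10 libraries. Their part in the members' values was not tested.

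Among the genes whose pattern over the 10 mice was most like the mean of the 7 tested members, each standardised, were Rinl (Pearson r = 0.969), Cd247 (0.967), Cd3e (0.966), Ms4a4b (0.95), Sh2d1a (0.941), Gimap4 (0.939) and Zap70 (0.937). The same r taken on deviations from the group means was 0.905 to 0.958, but the genes were picked for a high r over these same mice. The 10 libraries share the scaling factors and the difference between groups, and the values are a description. Among the members, Klrk1 and Il2rb had an r of 0.873, Klrd1 and Klrk1 of 0.819 and Eomes and Klrk1 of 0.0904.

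Promoter sequence is a feature that the choice of members did not use. RefSeq windows of 250 bases before to 50 after a gene start (GRCm38.p6) were at hand for 6 of the 9 members, in 8 windows, and not for Klrd1, Klrg1 and Il2rb. The letters TGTGGT, the core bound by Runx factors, were found on either strand in the windows of 5 of these 6 members, Klrk1, Klrc1, Klrc2, Klrb1c and Ncr1, and not in that of Eomes, while 5506 of all 32851 windows (16.8%) hold them. The T-box letters GGTGTGA were in the windows of 0 of the 6 members and in 3.98% of all windows. A match says only that the letters are there. The stretches of 250 bases before the start of Klrc1 (minus strand, chr6:129678974-129679223) and of Klrc2 (minus strand, chr6:129660597-129660846, the first of its 2 windows) are shown because these are the receptor genes past the unadjusted limit, 5′ to 3′ with the Runx letters, here read on the opposite strand as ACCACA, in capitals.
Klrc1: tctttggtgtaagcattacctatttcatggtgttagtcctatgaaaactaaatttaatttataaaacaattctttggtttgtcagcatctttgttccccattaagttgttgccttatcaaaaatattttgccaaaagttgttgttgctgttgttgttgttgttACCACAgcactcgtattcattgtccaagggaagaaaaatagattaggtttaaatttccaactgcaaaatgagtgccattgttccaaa
Klrc2: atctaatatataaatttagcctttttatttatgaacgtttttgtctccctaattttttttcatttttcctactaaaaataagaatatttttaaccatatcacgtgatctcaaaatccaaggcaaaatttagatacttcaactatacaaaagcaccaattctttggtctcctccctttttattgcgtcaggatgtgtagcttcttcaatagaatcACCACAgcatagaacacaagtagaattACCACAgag
Klrc1 has the letters once and Klrc2 has them at 2 places, both within the last 36 bases before the start.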

How the data were processed

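Poly(A) RNA of colon tissue was sequenced from 5 DSS and 5 ceAF samples. The authors deposited raw counts per gene and FPKM in a single table. The submitters' processing notes name cutadapt 1.9.1 and HISAT2 2.2.1, and the counting program, strand setting and genome build are not given in the sources used here. The deposited FPKM equalled counts divided by exonic length and library total within 0.0051 for 100% of values, and they keep no TMM scaling. The members and gene lists were chosen with earlier results of these data known. Counts were tested with edgeR 4.0.16 in R 4.3.3 (filterByExpr with a minimum count of 10, TMM, quasi-likelihood, two-sided, Benjamini-Hochberg over 16545 genes), without covariates, after a run on simulated counts. Exact permutation tests used all 252 assignments of 5 of 10 mice on log2 CPM with a prior count of 1. DESeq2 1.42.0 and limma 3.58.1 were alternatives. Named genes were taken from the members, known partners, and of each list up to 4 genes with the smallest unadjusted p under 0.05 and the 2 with the highest FPKM, and the 8 genes most like the members, of which 1 is not reported here, and not every gene so allowed is printed. No pair of libraries of a group was alike within sampling noise (chi-square of 13.2 to 133 per gene over 20 pairs).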

Additional observations from a re-analysis of the deposited data

Results flagged for a closer look

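Among 32 groups of 5 values examined for the members and 7 partner and T cell genes, 4 had 1 mouse far from the other 4 on the log2 CPM scale, and chance marks about 1 in 20 such groups. Klrd1 was low in ceAF-4 (3.94 CPM), whose gap to the next mouse was 0.817 of the group's range. Il2rb was low in DSS-5 (7.14 CPM), with a gap of 0.78 of the range. Cd3e and Trdc were low in the same mouse (4.62 and 0.84 CPM), with gaps of 0.766 and 0.788. DSS-5 thus accounts for 3 of the 4, and values from 1 mouse are not independent of one another.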

How the results depend on the processing

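Over 38 genes with a log2 fold change, 688 of 715 values under other settings kept their direction and 27 in 6 genes did not, all of these in genes that passed no threshold. Another setting brought 8 values past an adjusted p of 0.05, and none was of a member. Genes called numbered 0 in the fit described, 26 with DESeq2, 7 by limma on unfiltered FPKM and 0 to 3 when 1 library was left out, where the 3 came without DSS-5. Members called were 0 in every setting run. Members lower at an unadjusted p under 0.05 were 3, and 2 to 4 with 1 library left out. With a minimum count of 30 4 members were tested, and Klrc2, Klrb1c and Eomes had no value. Left-out libraries gave Klrb1c -0.39 to 0.16, Eomes -0.63 to 0.20, Ulbp1 -0.27 to 0.26, H2-T23 -0.30 to 0.30, Il15 -0.33 to 0.32 and Klrb1 -0.53 to 0.03. By limma Ulbp1 was -0.01 on log2(FPKM + 1) and -0.08 on log2(FPKM + 0.1), H2-T23 was -0.04 on both, and Klrb1 was 0.19 on log2(FPKM + 0.1), filtered or not. The cause was not tested.

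Replicate numbers do not pair the mice: same-numbered samples had correlations of deviations from -0.249 to 0.286, and 1 of 5 was best with its own number. With replicate number as a block 694 genes had an unadjusted p under 0.05, 341 of them lower, 0 genes and 0 members were called and 2 members were lower at an unadjusted p under 0.05, while Ulbp1 was -0.08, H2-T23 -0.01 and Klrb1 0.04.

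Counts were under 30 in every library for Klrc2, Klrb1c, Klrg1, Ncr1 and Eomes, in 4 ceAF libraries for Klrc1 and in DSS-5 and ceAF-4 for Klrk1, which limits these genes, and p-values measure the spread between 5 samples a group.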
